A study of Danio rerio with 31 samples.

Results

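The Period genes and the Ciart genes code for repressors of the circadian clock, and 6 of the 32520 gene IDs counted in adult zebrafish brain belong to them. They were chosen by symbol, whatever the letter case and with or without the paralog letter: PER1 (2 IDs, ENSDARG00000012499 and ENSDARG00000056885), PER2 (ENSDARG00000034503), PER3 (ENSDARG00000010519), ciarta (ENSDARG00000058094) and ciartb (ENSDARG00000088171). The name table does not say which PER1 ID is per1a and which is per1b, so ENSDARG00000012499 is called the first PER1 gene here and ENSDARG00000056885 the second. PER1 and Ciart each have a pair of paralogs, and how reads that fit both copies were counted is not given in the sources used here.

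The study asked how a mixture of polychlorinated biphenyls (PCBs, persistent industrial oils) and polybrominated diphenyl ethers (PBDEs, flame retardants) alters gene expression in the brain of exposed fish and of descendants that were never exposed. Whole brains of 24 adult fish of the TU line, a laboratory strain, were profiled by mRNA sequencing. There were 4 F2 females of the treated line, 4 F2 females of the control line, 2 F2 males of the treated line, 2 F2 males of the control line, 6 F0 males exposed to the mixture and 6 F0 control males. The F2 fish are grand-offspring of exposed or control fish and were not exposed themselves. The labels give no dose, duration, age, family or tank, and no hour of sampling.

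In vertebrates the activators CLOCK and BMAL1 switch on the Period and cryptochrome genes through E-box elements, and PER and CRY proteins return to the nucleus and repress CLOCK and BMAL1, which closes a loop of about a day. PER2 is also induced directly by light in zebrafish, and per3 is a widely used marker of the running clock in this species. CIART (CHRONO) binds BMAL1 and represses the same complex, as known from the mouse. Since transcripts of such genes rise and fall over the day and the hour of sampling is not in the labels, no phase of the cycle is assigned to any fish here.

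Gene reads summed to 12.2 to 34.1 M per fish: 15.2 to 22.8 M and 18.1 to 30.1 M in F2 females of the treated and the control line, 12.2 to 15.7 M and 16.6 to 24.7 M in F2 males of the treated and the control line, and 20.9 to 34.1 M and 16.4 to 26 M in treated and control F0 males. Each of the 6 genes had at least 280 reads in every fish (up to 16112), and all 6 passed the filter on low counts in every comparison. Markers of neurons, radial glia and oligodendrocytes were present throughout (11 of 12, 10 of 11 and 9 of 9 averaged at least 1 CPM). The outside-gene share is the part of uniquely aligned reads that fell in no gene. In F2 females it was 18.7 to 20.8% in the treated line against 21.6 to 23.5% in the control line. In F0 males it was 16.6 to 19.5% in treated against 19.9 to 21.4% in control fish. These ranges do not overlap, so in both sets the share cannot be told apart from line or exposure when it is adjusted for. The summed level of 29 photoreceptor markers varied from fish to fish, between 19.87 and 1258 CPM in F2 fish, while F0 controls 33 and 9 had 17.5 and 22.89 CPM and the other F0 males 378.7 to 780.6 CPM. In earlier results of these data, F0 treated fish 16 and F0 controls 9 and 33 lay apart from the rest. The F0 fold changes of the 6 genes are also given without these 3. The criterion for lying apart is not shown here, and no F2 library was left out in that setting.

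Levels are in CPM (counts per M reads, on library sizes scaled by the TMM method), as mean ± SD over fish. They are compared between groups and not between genes, because no gene lengths were used. PER2 averaged 409.0 ± 40.13 and 400.5 ± 74.95 CPM in F2 females of the treated and the control line (n = 4 each), 543.9 ± 72.41 and 459.9 ± 18.71 CPM in F2 males of the treated and the control line (n = 2 each), and 477.6 ± 51.02 and 411.4 ± 35.93 CPM in treated and control F0 males (n = 6 each). The groups thus ran from F2 males of the treated line down to F2 females of the control line. No neighbours in that order stood further apart than the sum of their SDs. The ends lay 143.4 CPM apart against summed SDs of 147.4 CPM. By the same rule F2 males of the treated line did stand apart from F0 control males and from F2 females of the treated line. In bulk tissue, fewer cells that use a gene and less of its RNA per cell cannot be told apart.

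The PER1 gene ENSDARG00000012499 averaged 239.7 ± 51.01 and 196.4 ± 40.75 CPM in F2 females of the treated and the control line, 219.2 ± 12.61 and 180.4 ± 5.731 CPM in F2 males of the treated and the control line, and 247.1 ± 51.53 and 289.5 ± 24.99 CPM in treated and control F0 males. Its neighbours in the order were all within their spread, but the ends, F0 control males and F2 males of the control line, lay 109.1 CPM apart against summed SDs of 30.72 CPM. The second PER1 gene covered a narrow range of group means, between 60.08 ± 9.726 CPM in treated F0 males and 76.64 ± 24.17 CPM in F2 females of the treated line, and no groups stood apart beyond their spread. PER3 ran from 171.6 ± 53.93 CPM in F2 females of the control line to 105.7 ± 25.97 CPM in F2 males of the control line, and even these ends overlapped within their SDs.

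The Ciart genes differed in their order of groups. ciarta was highest in F2 females of the treated line (75.9 ± 12.5 CPM) and lowest in F2 males of the treated line (45.01 ± 10.28 CPM), and these ends were 30.89 CPM apart against summed SDs of 22.78 CPM. ciartb was highest in treated F0 males (37.3 ± 5.457 CPM) and lowest in F2 females of the control line (16.39 ± 1.938 CPM). It gave the only neighbours among the 6 genes that differed beyond their spread. These were F2 males (24.36 ± 1.43 CPM) and F2 females of the control line, 7.967 CPM apart against summed SDs of 3.368 CPM. How many of all genes stand apart by this rule was not counted. The SDs of F2 males, which enter this gap and the ends of ciarta and of the first PER1 gene, rest on 2 fish. Ends are also the extremes of groups sorted by mean. The plot of levels by fish shows all of these values.

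**Figure D1:**
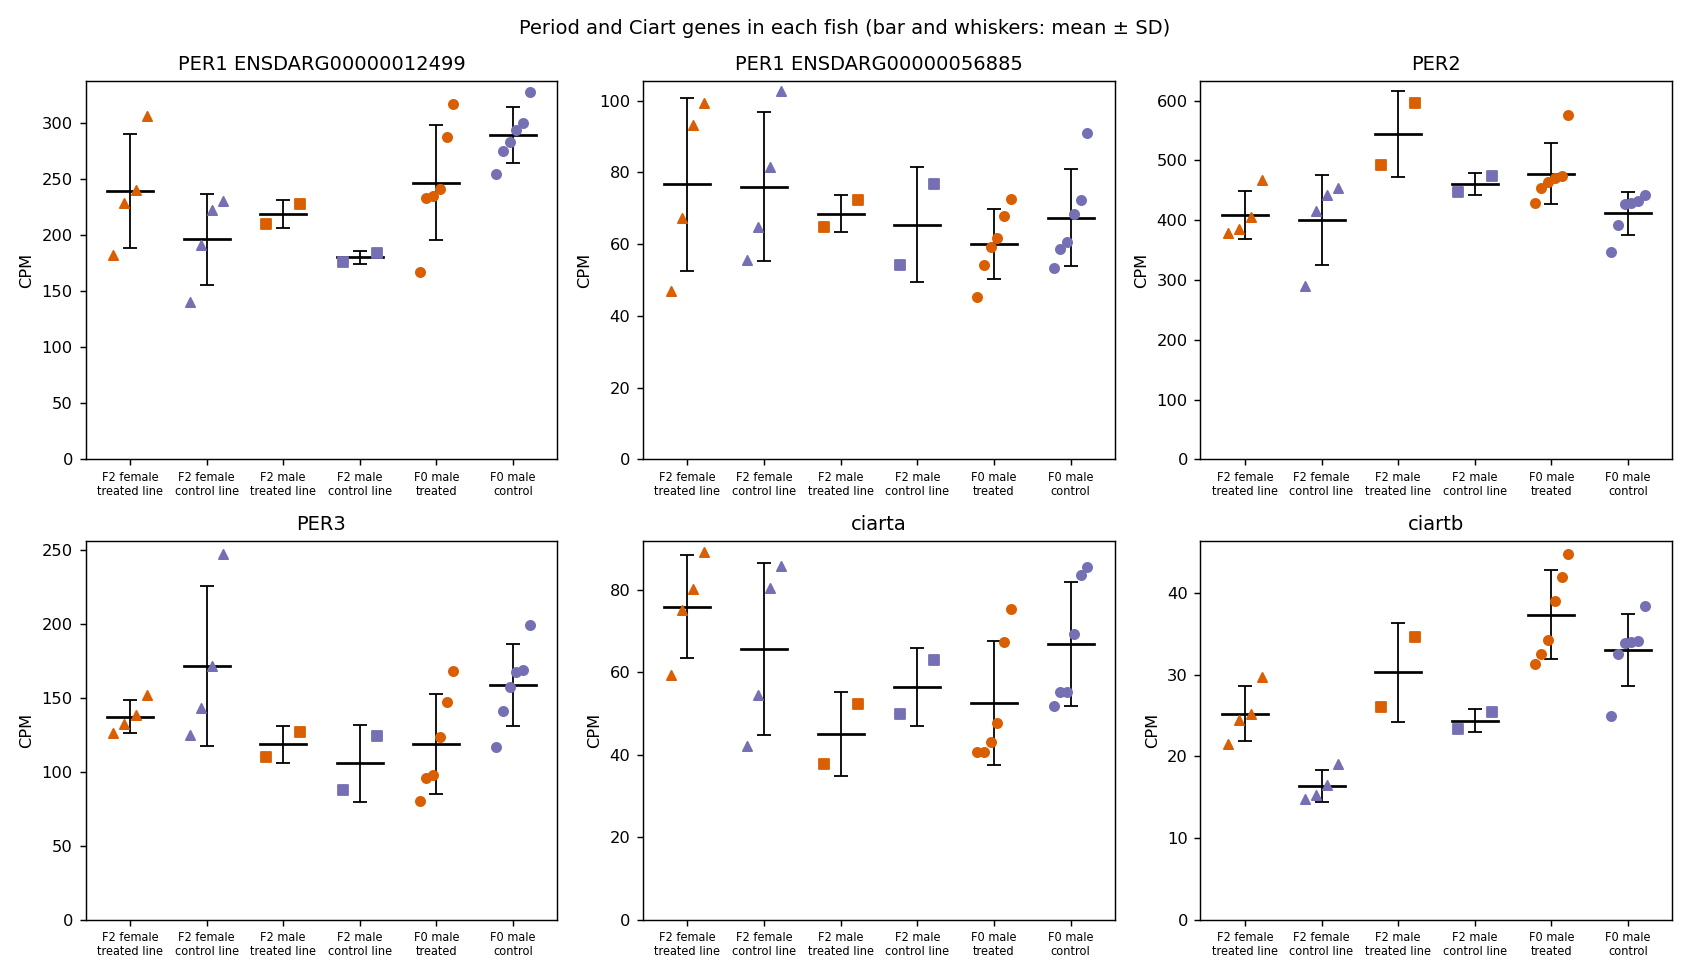
Level of each Period and Ciart gene in each of the 24 fish, in CPM on a linear axis that starts at 0; points are fish (triangles F2 females, squares F2 males, circles F0 males; orange treated, purple control), bars the group mean and whiskers the SD. ciartb lies between 14.72 and 19.09 CPM in F2 females of the control line, below all other fish.

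In exposed F0 males, none of the 6 genes passed the test. PER2 had the smallest p among them. Its lowest, median and highest level was 428.5, 466.9 and 576.4 CPM in treated males, against 346.8, 428.3 and 441.3 CPM in control males. All 6 treated males lay above the control mean, although the ranges overlapped. The log2 fold change of treated over control was 0.23 (SE 0.0863, 95% interval 0.04 to 0.41), with an unadjusted p = 0.0189 and an adjusted p = 0.0949.

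PER3 pointed the other way, at 79.84, 110.7 and 168.1 CPM (lowest, median, highest) in treated males, against 116.9, 162.3 and 199.4 CPM in control males. Treated fish 2 was the only treated male above the control mean of PER3. The log2 fold change was −0.41 (SE 0.167, 95% interval −0.77 to −0.05; unadjusted p = 0.0269, adjusted p = 0.116). Without treated fish 2 it was −0.53 (SE 0.154) with an adjusted p = 0.0299, the only setting tried in which a member passed in F0 males. That setting also called more of all genes, 3217 of 18369 tested, against 2060 of 18057 with all 12 fish.

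Levels of the first PER1 gene were 167.3, 238.5 and 317.1 CPM in treated males, against 254.5, 289.0 and 328.4 CPM in control males, with 5 of 6 treated males below the control mean (log2 fold change −0.22, 95% interval −0.47 to 0.03, adjusted p = 0.232). ciarta had 40.55, 45.45 and 75.23 CPM in treated males, against 51.71, 62.27 and 85.49 CPM in control males (log2 fold change −0.34, 95% interval −0.71 to 0.03, adjusted p = 0.209). For the second PER1 gene the log2 fold change was −0.16 (95% interval −0.44 to 0.12) and for ciartb 0.19 (95% interval −0.06 to 0.44), and the ranges of treated and control males overlapped for each of these 4 genes. The intervals of the 4 genes reach from no difference to values as large as those of PER2 and PER3, so equal levels in the arms are not shown either.

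Against these 0 of 6 by edgeR, 11.4% of the 18057 genes tested passed an adjusted p of 0.05, and 2 of 6 members (PER2 and PER3) against 29.6% of all genes had an unadjusted p under 0.05. DESeq2 also called 0 of 6, against 21.5% of the genes it tested. No member had ranges that were free of overlap between the arms, against 5.54% of all genes. Adjusted for the outside-gene share, PER2 had a log2 fold change of −0.02 (SE 0.113), PER3 −0.24 (SE 0.31), the first PER1 gene 0.08 (SE 0.178), the second −0.20 (SE 0.221), ciarta −0.31 (SE 0.32) and ciartb 0.04 (SE 0.191), so the sign of PER2 and of the first PER1 gene turned. Without the 3 libraries that lay apart the values were 0.09 for PER2 (SE 0.0662), −0.26 for PER3 (SE 0.203), −0.17 for the first PER1 gene (SE 0.0968), −0.27 for the second (SE 0.139), −0.26 for ciarta (SE 0.194) and 0.10 for ciartb (SE 0.121), and none passed. Over the 6 genes the median log2 fold change was −0.19, against −0.02 over all genes. The pineal gland is a light-sensing clock organ of the fish brain. Its 5 summed markers were aanat2, ASMT, asmt2, TPH2 and parietopsin, 4 of them at 1 CPM or more. Their sum was 75.37 to 118.6 CPM in treated males and 26.02 to 97.38 CPM in control males. Whether this sum measures the pineal gland alone, and its part in the values of the 6 genes, was not tested.

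**Figure D2:**
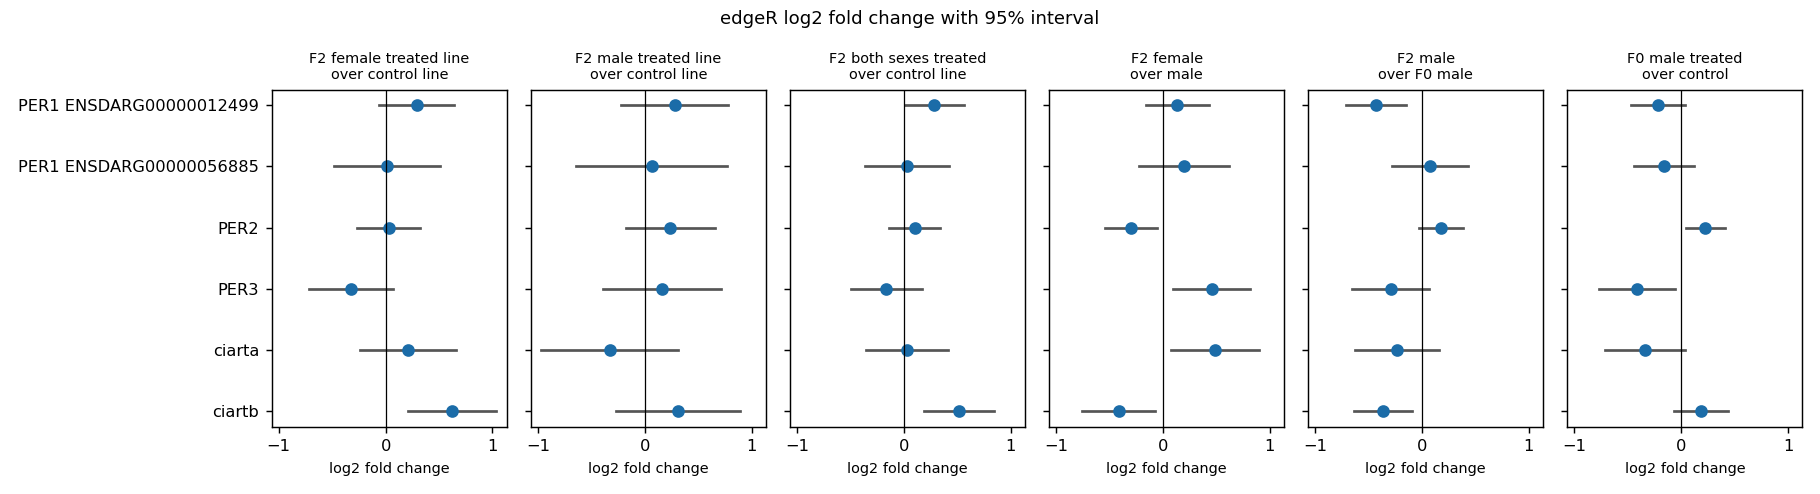
edgeR log2 fold change of each gene in 6 comparisons, with points for the estimate and lines for its 95% interval; the vertical line marks no difference and positive values are higher in the group named first in each panel. No gene passed an adjusted p of 0.05 in any panel; ciartb in F2 females (0.62) has the highest estimate and the first PER1 gene in F2 males over F0 males (−0.43) is among the lowest.

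In F2 females, ciartb was the 1 member whose levels did not overlap between the lines, although it did not pass the test. It had 21.5, 24.46, 25.15 and 29.7 CPM in females of the treated line, against 14.72, 15.29, 16.46 and 19.09 CPM in females of the control line. Every female of the treated line was above every female of the control line. The log2 fold change was 0.62 (SE 0.196, 95% interval 0.21 to 1.04, unadjusted p = 0.00567), but over the 19463 genes tested the adjusted p was 0.472. It ranged from 0.0871 to 1 over the settings tried, and the log2 fold change was 0.29 (SE 0.299) when adjusted for the outside-gene share.

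The other 5 genes overlapped between the lines in F2 females. PER3 had 125.8, 132.0, 138.4 and 151.9 CPM in the treated line, against 124.8, 143.1, 171.1 and 247.3 CPM in the control line. All 4 females of the treated line were below the control mean, which control female 31 (247.3 CPM) pulled upward, and the log2 fold change was −0.32 (95% interval −0.71 to 0.06, adjusted p = 0.76). Adjusted for the outside-gene share it was 0.06 (SE 0.279), which turns the sign. The first PER1 gene had 182.6, 229.1, 240.9 and 306.3 CPM in the treated line, against 140.8, 191.4, 222.6 and 230.8 CPM in the control line (log2 fold change 0.29, 95% interval −0.06 to 0.64). PER2 (0.03), the second PER1 gene (0.01) and ciarta (0.21) had log2 fold changes whose 95% intervals spanned 0, the widest being −0.48 to 0.51 for the second PER1 gene.

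In this comparison edgeR called 0 of 6 members and 0.0% of all genes. 1 of 6 members, ciartb, had an unadjusted p under 0.05, against 7.65% of all genes, and likewise 1 of 6 had no overlap between the lines, against 3.77% of all genes. DESeq2 called 0 of 6, against 0.241% of the genes it tested. The median log2 fold change was 0.12 over the 6 genes and −0.02 over all genes. The summed photoreceptor markers of these females were 31.06 to 1258 CPM in the treated line and 19.87 to 417.7 CPM in the control line, and their part in the values of the 6 genes was not tested.

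F2 males, with 2 fish a line, gave wide intervals. PER2 had 492.7 and 595.1 CPM in males of the treated line, against 446.7 and 473.1 CPM in males of the control line. The first PER1 gene had 210.3 and 228.1 CPM in the treated line, against 176.3 and 184.5 CPM in the control line. ciartb had 25.97 and 34.54 CPM in the treated line, against 23.34 and 25.37 CPM in the control line. These 3 of 6 genes had no overlap between the lines, against 38.7% of all genes, a background that 2 fish a line make high.

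The log2 fold changes in F2 males were 0.24 for PER2 (95% interval −0.18 to 0.66), 0.28 for the first PER1 gene (−0.22 to 0.78), 0.31 for ciartb (−0.27 to 0.90), 0.16 for PER3 (−0.39 to 0.71), 0.07 for the second PER1 gene (−0.64 to 0.77) and −0.33 for ciarta (−0.97 to 0.31). All had an adjusted p of 1, edgeR called 0 of 6 members and 0.0% of all genes, 0 of 6 had an unadjusted p under 0.05 (1.4% of all genes), and DESeq2 called 0 of 6, against 0.0203% of the genes it tested. Summed microglia markers were 494.0 and 580.3 CPM in the treated line and 719.7 and 743.8 CPM in the control line, and their part in these values was not tested.

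With both sexes in 1 model that holds sex as a term, the F2 lines again differed most in ciartb, with a log2 fold change of treated over control line of 0.52 (SE 0.156, 95% interval 0.19 to 0.85, unadjusted p = 0.00394, adjusted p = 0.378). These are the same fish as in the comparisons by sex, and all 6 F2 fish of the treated line lay above the control mean of their sex. The first PER1 gene had 0.29 (SE 0.132, 95% interval 0.01 to 0.56, unadjusted p = 0.0443, adjusted p = 0.624), with 5 of 6 above it. edgeR called 0 of 6 members and 0.0% of all genes, 2 of 6 members against 7.75% of all genes had an unadjusted p under 0.05, and DESeq2 called 0 of 6, against 0.623% of the genes it tested. Adjusted for the outside-gene share, ciartb had 0.22 (SE 0.226) and the first PER1 gene 0.40 (SE 0.201).

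The line effect in F2 fish and the exposure effect in F0 males were also set against each other directly. For the first PER1 gene the F2 female line effect (0.29) exceeded the F0 male exposure effect (−0.22) by 0.52 on the log2 scale (95% interval 0.08 to 0.95, unadjusted p = 0.0214, adjusted p = 0.375). For ciartb the F2 female effect exceeded that of F0 males by 0.44 (95% interval 0.02 to 0.86, unadjusted p = 0.0407, adjusted p = 0.409). Neither passed, and edgeR called 0 of 6 members against 0.00474% of all genes, with 2 of 6 members against 11.6% of all genes at an unadjusted p under 0.05. Differences between the F2 male effect and the F0 male effect, and between the F2 female and the F2 male effect, were not called for any member either (0 of 6 against 0.0% of all genes in each, and 0 of 6 at an unadjusted p under 0.05 against 6.18% and 1.5%). DESeq2 called 0 of 6 members in each of these 3 tests, against 0.423% of the genes it tested for F2 female minus F0 male effects, 0.0473% for F2 male minus F0 male effects and 0.0% for F2 female minus F2 male effects.

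Between female and male F2 brains, 4 of 6 genes had an unadjusted p under 0.05, against 5.26% of all genes. Their values had both signs, and none passed after adjustment. PER3 and ciarta had log2 fold changes of female over male of 0.46 (SE 0.17, 95% interval 0.10 to 0.81, unadjusted p = 0.0157) and 0.48 (SE 0.196, 95% interval 0.07 to 0.90, unadjusted p = 0.0243). PER2 and ciartb had −0.30 (SE 0.117, 95% interval −0.55 to −0.05, unadjusted p = 0.0205) and −0.41 (SE 0.163, 95% interval −0.76 to −0.07, unadjusted p = 0.0207). Their adjusted p lay between 0.841 and 0.873. The count of 4 was 1 without male 38 of the treated line, 2 without male 25 of the control line, 3 without male 27 of that line and 0 with adjustment for the outside-gene share. Over all genes the counts were 556 of 19450, 515 of 19328, 750 of 19379 and 281 of 19463, against 980 of 18628 in the main fit. Within groups PER2 and ciartb had a Pearson r of 0.579, and PER3 and ciarta 0.57, which did not pass adjustment. The 4 genes are therefore not counted as independent results.

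By fish, ciarta had 59.29 to 89.06 CPM in 4 females of the treated line, against 37.74 and 52.27 CPM in the males of that line. In the control line it had 42.03 to 85.79 CPM in females, against 49.77 and 63.08 CPM in males. PER2 had 378.7 to 467.0 CPM in females of the treated line, against 492.7 and 595.1 CPM in its males. The sexes were thus apart in the treated line for ciarta and PER2, and overlapped in the control line for ciarta and for PER2, where females had 290.6 to 453.7 CPM against 446.7 and 473.1 CPM in males.

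PER3 had 124.8 to 247.3 CPM in females of the control line, against 87.38 and 124.1 CPM in its males, and the sexes overlapped in the treated line. ciartb had 14.72 to 19.09 CPM in females of the control line, against 23.34 and 25.37 CPM in its males, and likewise overlapped in the treated line. The sexes thus did not overlap for 2 of 6 genes in the treated line, against 10.6% of all genes, and for 2 of 6 in the control line, against 16.6% of all genes. No member passed the test of the difference between the lines in the effect of sex, which is the same contrast as F2 female minus F2 male line effects. edgeR called 0 of 6 members for sex, against 0.0161% of all genes, and 4 of 6 against 5.26% of all genes had an unadjusted p under 0.05. DESeq2 gave an adjusted p for 5 of 6 members and called 0, against 0.607% of the genes it tested. Adjustment for the outside-gene share brought each of the 4 values nearer to 0, at 0.18 for PER3, 0.35 for ciarta, −0.21 for PER2 and −0.18 for ciartb. That share was 21.6 to 23.5% in females and 19.1 to 21.0% in males of the control line, without overlap. In the treated line it was 18.7 to 20.8% and 17.7 to 20.2%, with overlap. Share and sex thus cannot be told apart in the control line when the share is adjusted for.

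F2 males against F0 males gave the smallest adjusted p of any member. The first PER1 gene had 210.3 and 228.1 CPM in F2 males of the treated line and 176.3 and 184.5 CPM in F2 males of the control line, against 167.3 to 317.1 CPM in treated F0 males and 254.5 to 328.4 CPM in control F0 males. All F2 males lay below all F0 control males. They were within the range of treated F0 males only through treated fish 16 (167.3 CPM), a library that lay apart. The other treated F0 males had 233.5 to 317.1 CPM, above every F2 male. How many of all genes separate the generations in this way was not counted. The log2 fold change of F2 over F0 males was −0.43 (SE 0.137, 95% interval −0.71 to −0.15, unadjusted p = 0.00427), and the adjusted p of 0.0684 missed the threshold.

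That call depended on the setting. The adjusted p of the first PER1 gene was 0.0489 with adjustment for the outside-gene share, 0.0215 without the 3 libraries that lay apart (log2 fold change −0.49), 0.0203 with males fitted alone and 0.0193 in DESeq2. Leaving out single fish gave 0.0128 without F0 treated fish 16, 0.0433 without female 6 of the treated line and 0.0414 without female 21 of the control line, and up to 0.295 otherwise. ciartb had −0.37 (SE 0.133, 95% interval −0.64 to −0.10, unadjusted p = 0.0098, adjusted p = 0.105), with an adjusted p of 0.0495 with males fitted alone and 0.0261 in DESeq2. These settings also called more of all genes than the main fit (902 of 21082). The counts were 1445 of 21082 with the covariate, 1552 of 20821 without the 3 libraries, 3278 of 20373 with males alone and 2079 of 15254 in DESeq2. Without F0 treated fish 16 it was 2315 of 20997. Without female 6, 776 genes were higher and 720 lower of 21029, and without female 21, 655 and 744 of 21014.

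For the remaining genes the log2 fold changes of F2 over F0 males were −0.29 for PER3, −0.23 for ciarta, 0.17 for PER2 and 0.07 for the second PER1 gene, each with a 95% interval that spans 0. edgeR called 0 of 6 members against 4.28% of all genes, 2 of 6 against 20.8% of all genes had an unadjusted p under 0.05, and DESeq2 called 2 of 6 against 13.6% of the genes it tested. Generation cannot be told apart here from anything else that differed between the sets of fish, such as age, day of sampling or sequencing batch.

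The genes varied unequally from fish to fish. Across all 24 fish the ratio of highest to lowest level was 3.1 for PER3 (79.84 to 247.3 CPM), 3.04 for ciartb (14.72 to 44.8 CPM), 2.36 for ciarta, 2.33 for the first PER1 gene, 2.27 for the second and 2.05 for PER2. These ratios also hold the differences between groups. The SD within groups on the log2 scale was 0.359 for ciarta, 0.333 for the second PER1 gene, 0.326 for PER3, 0.257 for the first PER1 gene, 0.2 for ciartb and 0.176 for PER2. Set against genes within 2-fold of their level, PER3 varied more than 91.6%, ciarta more than 87.7%, the second PER1 gene more than 85.6% and the first more than 80.9%. PER2 varied more than 43.8% of genes of like level, and ciartb more than 14.5%.

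Part of that variation was shared between some of the 6 genes. How many of all gene pairs correlate as strongly was not worked out. ATF2 had a higher r with the first PER1 gene (0.906) than any member had, so shared movement was not particular to these genes. Deviations of each fish from its group mean on the log2 scale were correlated for all 15 pairs over the 24 fish, with fish permuted within groups and Benjamini-Hochberg adjustment over the 15 pairs. The first PER1 gene and ciarta went together with a Pearson r of 0.818 (permutation p = 2e-05, adjusted p = 0.0003) and a Spearman rho of 0.841 (permutation p = 4e-05, adjusted p = 0.0003). The PER1 genes had r = 0.726 (permutation p = 0.00048, adjusted p = 0.0024) and rho = 0.802 (adjusted p = 0.0003). The second PER1 gene and ciarta had r = 0.725 (permutation p = 0.00023, adjusted p = 0.00172) and rho = 0.739 (adjusted p = 0.00175).

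These 3 pairs kept a positive r without the 2 fish farthest from the median of the first gene of the pair (0.804, 0.836 and 0.687). By generation r was 0.892, 0.875 and 0.862 in the 12 F2 fish and 0.752, 0.533 and 0.588 in the 12 F0 males. No p was worked out for any subset of the fish. Without the 3 libraries that lay apart r was 0.867, 0.867 and 0.819. PER2 and ciartb also passed, with r = 0.579 (permutation p = 0.00713, adjusted p = 0.0267) and rho = 0.568 (adjusted p = 0.0442). For this pair r was 0.629 without the 2 farthest fish and 0.502 without the 3 libraries that lay apart. It was 0.643 in F2 fish and 0.55 in F0 males. In F0 males ciartb had a higher r with the second PER1 gene (0.741) and with ciarta (0.727) than with PER2. PER3 and ciarta had r = 0.57 and did not pass (permutation p = 0.023, adjusted p = 0.069), and the other 10 pairs had adjusted p of at least 0.283.

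**Figure D3:**
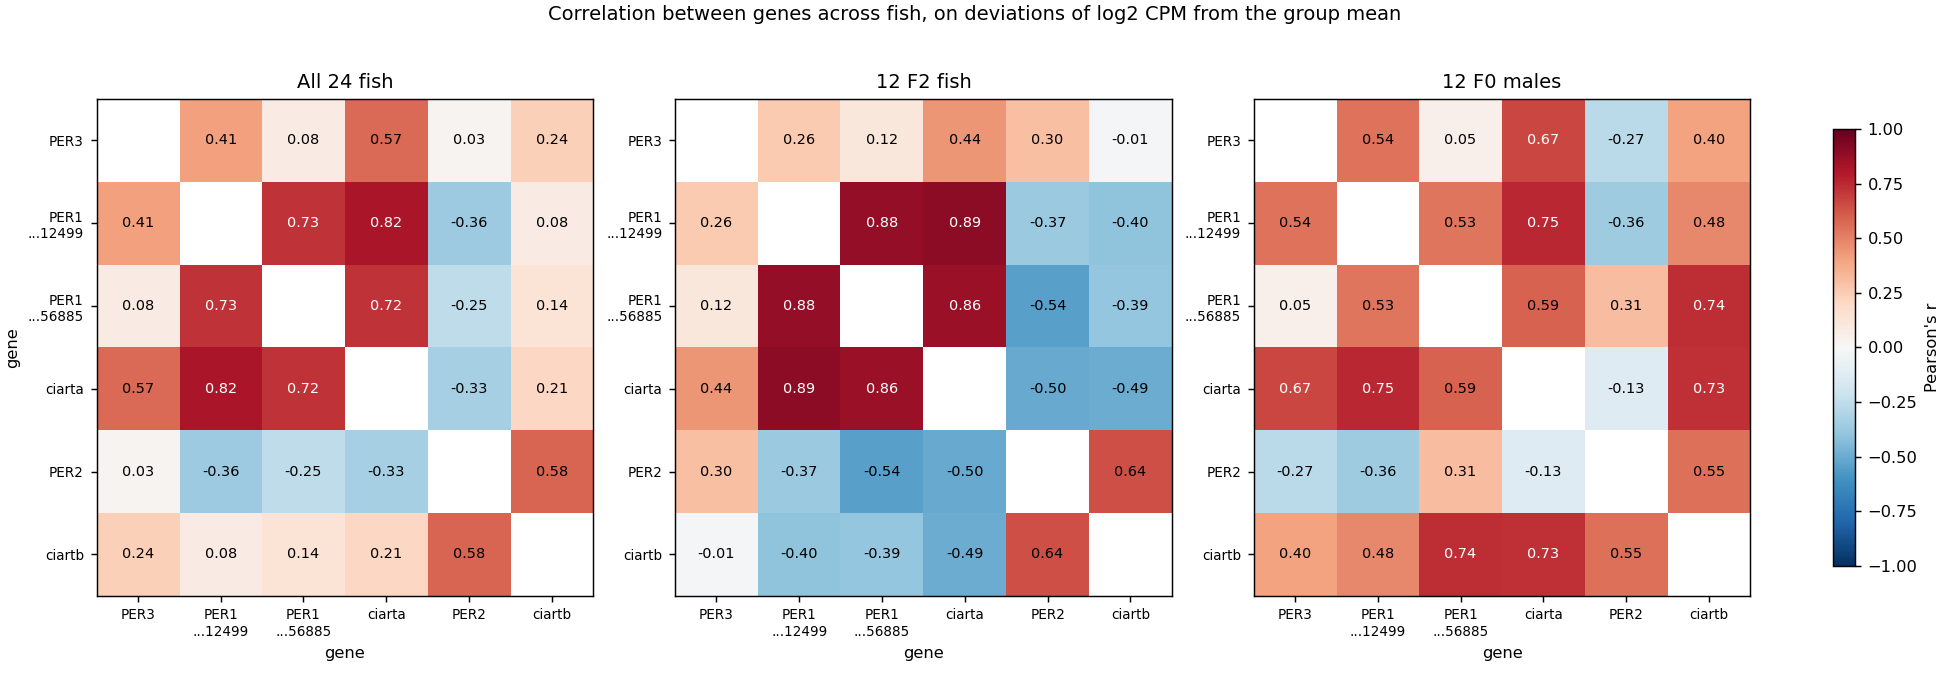
Pearson's r between the 6 genes on deviations of log2 CPM from the group mean, for all 24 fish, the 12 F2 fish and the 12 F0 males; red is positive and blue negative. Both PER1 genes and ciarta form a red block in every panel, while ciartb is red with ciarta in F0 males (0.73) and blue in F2 fish (−0.49).

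Single fish illustrate the shared movement. They were picked from the same levels that gave the correlations, so they add no support to them. Among treated F0 males, fish 2 and fish 10 had the highest and next highest level of the first PER1 gene (317.1 and 287.8 CPM), the second PER1 gene (72.46 and 67.82 CPM), PER3 (168.1 and 146.8 CPM), ciarta (75.23 and 67.27 CPM) and ciartb (44.8 and 41.88 CPM), but not of PER2 (453.7 and 469.7 CPM). Treated F0 fish 16 was lowest for the first PER1 gene (167.3 CPM) and for ciarta (40.55 CPM, next to 40.67 CPM in fish 36) and highest for PER2 (576.4 CPM). Its second PER1 gene was at the group mean (log2 deviation −0.002). Fish 36 was lowest for the second PER1 gene (45.22 CPM) but near the group mean for the first (log2 deviation −0.054). Among F2 females of the treated line, fish 24 was lowest for the first PER1 gene (182.6 CPM), the second (47.0 CPM) and ciarta (59.29 CPM) and highest for PER3 (151.9 CPM).

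Among F2 females of the control line, fish 21 was lowest for both PER1 genes (140.8 and 55.49 CPM), ciarta (42.03 CPM) and PER3 (124.8 CPM). Control female 11 had the lowest PER2 (290.6 CPM) and ciartb (14.72 CPM) of its group, with the highest level of both PER1 genes (230.8 and 102.6 CPM). In fish 16 and female 11 the first PER1 gene and PER2 thus stood at opposite ends of their group, but over all fish the correlation of PER2 with the first PER1 gene (r = −0.362, permutation p = 0.183, adjusted p = 0.392) did not pass.

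**Figure D4:**
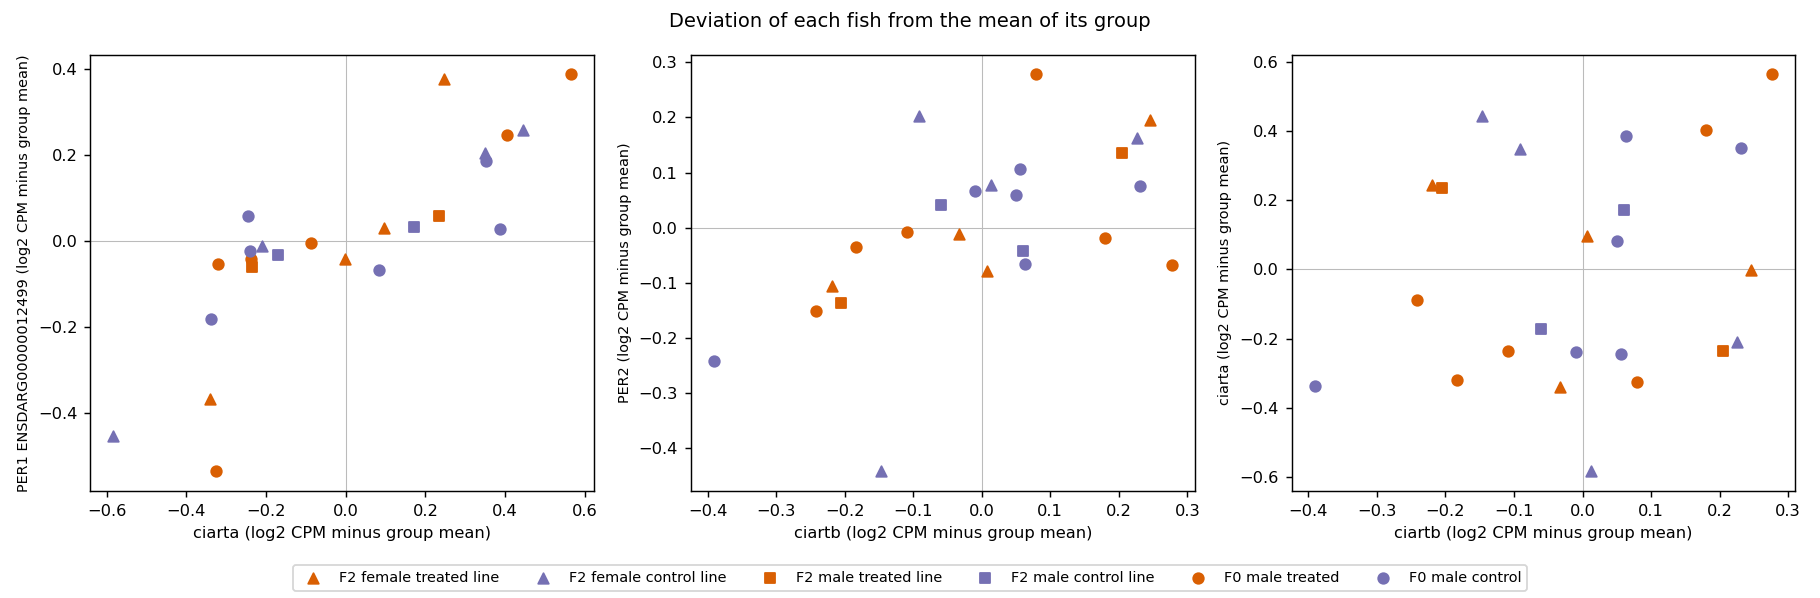
Deviation of each of the 24 fish from its group mean on the log2 CPM scale, for the first PER1 gene against ciarta, PER2 against ciartb and ciarta against ciartb; colours and shapes mark the 6 groups. The left panel runs along a diagonal (r = 0.818), and in the right panel F0 males lie along a diagonal (r = 0.727) and F2 fish do not (r = −0.495). The 2 fish of each F2 male group mirror each other around 0 because their mean was removed.

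The correlation of ciarta with ciartb was 0.727 in the 12 F0 males and −0.495 in the 12 F2 fish (0.209 over all 24), and that of the second PER1 gene with ciartb was 0.741 and −0.386. The difference between generations was not tested. The outside-gene share, which varies from library to library, had a within-group r of −0.546 with PER2 (permutation p = 0.0121, adjusted p = 0.0726 over 6 tests) and −0.515 with ciartb (permutation p = 0.0313, adjusted p = 0.0939), and between 0.131 and 0.337 with the other 4 genes. With that share removed from both genes, r was 0.808 for the first PER1 gene and ciarta, 0.73 for the PER1 genes, 0.721 for the second PER1 gene and ciarta, and 0.414 for PER2 and ciartb.

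The genes most like each member were looked up over the same deviations among 14184 named genes of at least 1 CPM. These values are a description over 24 fish that share library and depth, and they come from the extremes of many genes. For ciarta the list held the first PER1 gene (0.818), the palmitoyltransferase ZDHHC6 (0.814) and the clock repressor CRY2 (0.80), and the lowest values were those of AP1B1 (−0.777), slc47a1 (−0.737) and TMEM8B (−0.729). For the first PER1 gene it held the transcription factor ATF2 (0.906), TRAF3IP1 (0.895) and the protocadherin pcdh1g9 (0.877), with TMUB1 (−0.896), TMEM214 (−0.866) and PMPCB (−0.852) lowest. For the second PER1 gene it held VSTM4 (0.796), dbpb (0.784), a clock output factor that binds D-box elements, and GRB10 (0.783), with SESTD1 (−0.806), RAB36 (−0.732) and svilc (−0.723) lowest.

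For PER2 the list held the proteasome subunit PSMD2 (0.846), BTBD9 (0.817) and the glutathione peroxidase gpx1a (0.801), with MINK1 (−0.791), SNX19 (−0.775) and UBAC1 (−0.759) lowest. For PER3 it held PAX7 (0.789), the transketolase TKT (0.786) and the bicarbonate transporter SLC4A10 (0.778), with RANGAP1 (−0.789), mea1 (−0.78) and eif4a1a (−0.762) lowest. For ciartb it held MYLIP (0.743), JDP2 (0.74) and TENM4 (0.736), with iftap (−0.736), MARS2 (−0.728) and cep162 (−0.725) lowest. PAX7, RANGAP1, PSMD2, SNX19, VSTM4, GRB10, MYLIP and JDP2 are each 1 of 2 tested IDs of that symbol.

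Within the clock loop, the IDs of BMAL1 and of CRY1 differed in the sign of the same measure, and those of CLOCK did not. With the first PER1 gene, the second and ciarta, BMAL1 (ENSDARG00000006791) had r of −0.552, −0.611 and −0.573. The other BMAL1 ID (ENSDARG00000035732) had 0.236, 0.098 and 0.076, which are small values. These IDs averaged 31.16 and 5.515 CPM over the fish. The 2 CLOCK IDs had r of 0.642 and 0.148 with the first PER1 gene. Among the cryptochromes, CRY2 had 0.756, 0.722 and 0.80 with the same 3 genes. CRY1 ENSDARG00000045768 had −0.507, −0.257 and −0.24, and CRY1 ENSDARG00000011583 had 0.463, 0.269 and 0.289. The other cryptochromes (cry3a, cry3b, cry4, cry5 and cry-dash) had negative r with each of these 3 genes, between −0.01 and −0.658. The list of light-induced genes of zebrafish holds 7 IDs, among them both CRY1 IDs, because the symbols lack the paralog letter. The name table does not show whether both CRY1 IDs are copies that light induces. With PER2, r was 0.682 for cry5, which codes for a DNA repair photolyase. It was 0.617 for CRY1 ENSDARG00000045768 and −0.278 for CRY1 ENSDARG00000011583. For XPC, lonrf1, DDB2 and NEIL1 it was 0.442, 0.351, 0.317 and 0.302. BMAL1 ENSDARG00000006791 averaged 38.43 ± 7.492 CPM in treated F0 males and 33.56 ± 5.485 CPM in control F0 males (log2 fold change 0.20, SE 0.145, adjusted p = 0.368). CRY1 ENSDARG00000045768 had 323.6 ± 17.94 and 291.3 ± 11.22 CPM (0.16, SE 0.0663, adjusted p = 0.116). The other ID of each symbol had the opposite sign in these males. BMAL1 ENSDARG00000035732 had −0.33 (SE 0.379, adjusted p = 0.5998) and CRY1 ENSDARG00000011583 had −0.22 (SE 0.136, adjusted p = 0.3055). NR1D1, which codes for the repressor Rev-erb alpha, had a log2 fold change of 0.08 (adjusted p = 0.814) in the same males.

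The rest of the clock was described with 55 other gene IDs in 7 lists, of which 54 were tested in F0 males. In exposed F0 males 2 rose, 8 fell and 44 did not pass (10 of 54 called, against 11.4% of all genes), with a median log2 fold change of −0.13 against −0.02 over all genes. The 2 that rose were in the list of PER kinases and ubiquitin ligases (2 of 7, list median 0.13). They are FBXW11 (0.50, SE 0.098, adjusted p = 0.0151), which marks PER proteins for breakdown in mammals, and fbxl3b (0.65, SE 0.157, adjusted p = 0.0223), a relative of the ligase that removes CRY proteins. FBXW11 had 112.2 ± 17.6 CPM in treated males and 79.62 ± 6.058 CPM in control males.

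Of 11 Rev-erb and ROR genes, nuclear receptors that repress or activate BMAL1, 3 fell (list median −0.40): NR1D2 (221.2 ± 44.7 CPM in treated and 335.3 ± 14.19 CPM in control males, −0.59, adjusted p = 0.0151), rorab (−0.72, adjusted p = 0.0261) and RORB (−1.95, adjusted p = 0.0158). Of 10 tested PAR bZIP and Nfil3 genes, which act on D-box elements downstream of the clock, 3 fell (list median −0.49): tefa (104.3 ± 12.81 CPM in treated and 167.6 ± 21.03 CPM in control males, −0.68, adjusted p = 0.015), nfil3-5 (−0.65, adjusted p = 0.0223) and nfil3-6 (−1.81, adjusted p = 0.015). Of 6 clock activators 1 fell (list median −0.68), CLOCK ENSDARG00000011703 (−1.18, adjusted p = 0.0461). Of 8 IDs in the list of other E-box clock outputs 1 fell (list median −0.01), TIMELESS (−0.54, adjusted p = 0.0456). Whether TIMELESS is such an output in these fish was not tested. Levels were low for CLOCK (2.02 ± 1.013 CPM in treated and 4.601 ± 1.714 CPM in control males) and for RORB (mean 1.234 CPM over all fish). None of 8 cryptochromes (median 0.06) and none of 7 IDs in the list of light-induced genes of zebrafish (median −0.14) passed. The 3 IDs in both lists are cry5 and both CRY1 IDs.

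Treated and control F0 males did not overlap in the outside-gene share, so the share and exposure cannot be told apart in them. With adjustment for that share 0 of 20121 genes were called, so none of these 10 passed. There the log2 fold changes were −1.11 for CLOCK, −1.21 for RORB, −0.95 for nfil3-6, 0.50 for fbxl3b, −0.37 for tefa, −0.34 for nfil3-5, 0.22 for FBXW11, −0.13 for NR1D2, −0.06 for TIMELESS and 0.13 for rorab, whose sign turned. Without the 3 libraries that lay apart 42 of 18473 genes were called, among them NR1D2 (−0.47), rorab (−0.52) and tefa (−0.52), each with an adjusted p of 0.0498. The other 7 kept their sign at adjusted p of 0.0555 (nfil3-6, −1.41) to 0.181 (CLOCK, −1.12). Leaving out 1 fish ended the call of CLOCK in 8 of 12 cases (adjusted p 0.056 to 0.11, without treated fish 16, 24, 36 or 38 or control fish 9, 25, 31 or 33) and of TIMELESS in 8 (0.0537 to 0.0966, without treated fish 24, 36 or 38 or control fish 3, 9, 25, 31 or 33). It ended the call of rorab in 5 (0.0509 to 0.0669, without treated fish 24 or control fish 9, 25, 31 or 33), of fbxl3b in 3 (0.0502 to 0.0565, without control fish 25, 31 or 33) and of nfil3-5 in 2 (0.0501 to 0.06, without control fish 9 or 33). In the F2 line comparisons 0 of 54 passed in females, 0 of 54 in males and 0 of 53 in both sexes together, and for sex 0 of 53.

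**Figure D5:**
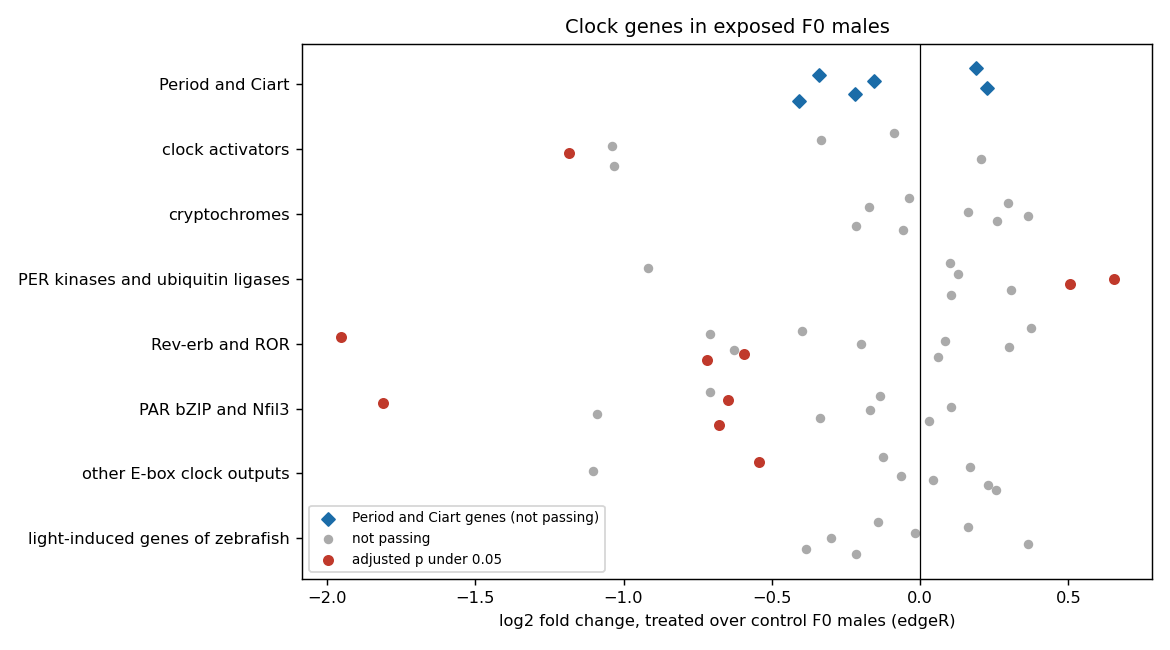
edgeR log2 fold change of treated over control F0 males for the 6 Period and Ciart genes (blue diamonds) and for 7 lists of other clock genes (grey, not passing; red, adjusted p under 0.05); rows are lists and the spread within a row is for legibility only. The Period and Ciart genes lie between −0.41 and 0.23, and RORB (−1.95) and nfil3-6 (−1.81) lie farthest from 0 among the red points. RORB averaged only 1.234 CPM over all fish, and nfil3-6 17.19 CPM.

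In F2 males over F0 males 3 of 54 other clock genes passed, against 4.28% of all genes, each lower in F2 males (median −0.22): NR1D2 (−0.46, adjusted p = 0.0288), rorab (−0.83, adjusted p = 0.0116) and HLF (adjusted p = 0.0174). HLF had 1.43 and 1.759 CPM in F2 males of the treated line and 0 reads in both F2 males of the control line, where 3 reads over the group would be 0.0726 CPM. In F0 males it averaged 2.33 ± 1.297 CPM in treated and 4.986 ± 2.194 CPM in control fish. Leaving out any 1 of the 4 F2 males ended the calls of NR1D2 (adjusted p 0.0686 to 0.22) and HLF (0.074 to 0.149), and leaving out male 38 of the treated line or male 25 of the control line ended that of rorab (0.118 to 0.136).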

How the data were processed

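Brain RNA of 24 fish was sequenced from TruSeq mRNA libraries in 31 runs. The deposited values are raw counts of reads per gene, made with HTSeq 0.11.2 per the submitters' processing notes, which also name bcl2fastq, cutadapt 2.1, STAR 2.7, DESeq2 1.24.0 and the GRCz11 (danRer11) genome. Overlapping and antisense genes are uncertain, because the strand setting, like the annotation release, is not given in the sources used here. Of 7 fish, 2 runs were deposited; their counts had a chi-square per degree of freedom of 1.03 to 1.19, against 18.31 to 114.98 for pairs of fish of a group, and were summed into 1 sample. HTSeq summary lines stayed out of library sizes. A name table gave symbols for 29201 gene IDs and none for 3319.

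The test was the quasi-likelihood F test of edgeR 4.0.16 (robust glmQLFit) in R 4.3.3, with TMM scaling, filterByExpr at a minimum count of 10 and Benjamini-Hochberg adjustment over all genes at 0.05. F0 males were fitted alone, F2 fish together in 4 groups (or with line and sex as terms), and contrasts across generations over all 24 fish. Adjusted p-values are from edgeR unless another tool is named. SE is the absolute log2 fold change divided by the root of F, and intervals are 95%. Correlations used log2 CPM (prior count 2) and 100000 permutations. The fits were also run on simulated counts in which all genes had the same dispersion (spread beyond counting noise). No outside-gene share was simulated, so that check covers the code and not the calls made here. DESeq2 1.42.0 was the alternative test, Python 3.11.15 with scipy 1.17.1, pandas 2.3.3 and numpy 2.4.6 ran the correlations, and matplotlib 3.10.9 drew the plots.

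The fish is the replicate. No family or tank is given, so p-values measure the spread between these fish only. The 6 members, the clock lists and the alternatives were chosen with earlier results of these data known. Named genes were the 6 members, other clock genes that passed (at most 4 a list and comparison), BMAL1, CLOCK, CRY1 and NR1D1 as points of the loop, and the 3 genes with the highest and the 3 with the lowest correlation to a member. The other BMAL1, CLOCK and CRY1 IDs, CRY2, the other cryptochromes and the list of light-induced genes were also named within the loop after their values were seen. The genes of the pineal sum were named to show what it covers.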

Additional observations from a re-analysis of the deposited data

Results flagged for a closer look

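PER2 in treated F0 fish 16 was at 576 CPM, while the other 5 treated F0 males were between 428 and 473 CPM. The gap to the next fish was 0.699 of the range of the group, which is more than Dixon's test allows for 6 samples at the 95% level. This was 1 of 24 combinations of gene and group with 4 or 6 fish, and chance flags about 1 in 20. The same fish had the lowest level of the first PER1 gene (ENSDARG00000012499, 167.3 CPM) and of ciarta (40.55 CPM) among treated F0 males.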

How the results depend on the processing

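Each comparison was repeated with RLE factors, no low-count filter, the first run of each fish only, other sets of fish in the fit, DESeq2, the outside-gene share as a covariate, the 3 F0 libraries apart left out, and each fish left out in turn. For F2 over F0 males, 1 member was called with the covariate, 1 without the 3 libraries, 2 with males only, 2 by DESeq2 and 0 to 1 when leaving out 1 fish; for F0 treated over control it was 0 to 1 when leaving out 1 fish. No other setting called a member in any comparison. No paired analysis was possible because treated and control fish of a comparison share no fish number, and a number shared by an F2 and an F0 fish names different fish.

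Signs turned in these cases, in which the cause was not tested. The covariate did not overlap between the arms in F0 males or between the lines in F2 females. With the covariate, the log2 fold change was 0.076 (first PER1 gene) and −0.024 (PER2) in F0 males, against −0.22 and 0.23 without it, and 0.13 for rorab. In F2 females it was 0.058 (PER3) and −0.19 (PER2), and in both F2 sexes 0.20 (PER3) and −0.0081 (PER2), where the 24-fish fit gave −0.059 for ciarta. For F2 female minus F2 male line effects the first PER1 gene had −0.0001034 without the filter and the second 0.14 with the covariate. For F2 male minus F0 male effects PER2 had −0.0012 with first runs, and ciarta −0.070 with the covariate and −0.063 without the 3 libraries. For F2 female minus F0 male effects PER3 had −0.057 without the 3 libraries.

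Leaving out 1 fish moved these values across 0. In F2 females PER2 ran from −0.096 to 0.10 and the second PER1 gene from −0.14 to 0.19. In F2 males PER3 ran from −0.073 to 0.45 and the second PER1 gene from −0.17 to 0.35. In both F2 sexes PER3 ran from −0.26 to 0.00083, the second PER1 gene from −0.066 to 0.15 and ciarta from −0.086 to 0.13. For F2 over F0 males the second PER1 gene ran from −0.062 to 0.19. For F2 female minus F2 male effects the first PER1 gene ran from −0.14 to 0.12 and the second from −0.33 to 0.18. For F2 male minus F0 male effects PER2 ran from −0.12 to 0.16, ciarta from −0.23 to 0.24 and ciartb from −0.085 to 0.33, and for F2 female minus F0 male effects PER3 ran from −0.033 to 0.32.

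Over all genes, the F0 comparison called 2060 genes, against 0 with the covariate (1105 at an unadjusted p under 0.05), 787 in the 24-fish fit, 42 without the 3 libraries, 3284 by DESeq2 and 440 to 3217 when leaving out 1 fish. F2 over F0 males called 902, against 1445 with the covariate, 1552 without the 3 libraries, 3278 with males only, 2079 by DESeq2 and 10 to 2315. DESeq2 called 48 in F2 females, 5 in F2 males, 75 in both F2 sexes, 30 for sex, 94 for F2 female minus F0 male and 11 for F2 male minus F0 male effects, where edgeR called 0, 0, 0, 3, 1 and 0. Without the filter edgeR called 3, 3 and 5 in F2 females, F2 males and both sexes, 6 for sex and 1 for F2 female minus F2 male effects. F2 females called 3 and both sexes 1 in the 24-fish fit, F2 males 22 when fitted alone, F2 male minus F0 male effects 2 with males only and F2 female minus F0 male effects 4 with the covariate. No scaling moved the median of all genes by over 0.1. The correlations with the outside-gene share, and those with it removed, were chosen after seeing the data. Each member had at least 280 reads in every fish, and the widest interval between 2 groups was in F2 males (second PER1 gene, −0.64 to 0.77).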
